A study of Mus musculus with 12 samples.

Results

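The 6 libraries described here are 3 of gastrocnemius muscle injected with saline and 3 of naive gastrocnemius muscle, out of 12 libraries in the series, and they were taken by their labels. The gastrocnemius is a calf muscle made mostly of fast fibres. All 6 came from wild-type C57BL/6 mice aged 6 to 7 months. Saline muscle received the vehicle injection alone and naive muscle came from the naive controls. The 2 groups not compared here received bupivacaine, a local anaesthetic that kills muscle fibres, and one of them was then needled 24 hours later. RNA of whole muscle was extracted with Trizol and sequenced. The labels do not give the volume of saline, the time between injection and collection, or whether each replicate was a separate animal. All p-values therefore describe a spread among libraries, which may be technical. Unless stated, that spread was estimated from all 12 libraries of the series, so the bupivacaine groups enter it.

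An injection of vehicle passes a needle through skin and fascia, tears some fibres and pushes fluid between the rest. In muscle, torn fibres are cleared by macrophages, satellite cells divide and fuse into new fibres, and fibro-adipogenic progenitors, the connective tissue stem cells between the fibres, lay down matrix. New fibres express embryonic myosin for a time, and dividing cells of every kind express the same mitotic genes. Comparing saline with naive muscle asks which of these traces a vehicle injection leaves, and it is the control against which a drug injection is read.

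Both groups carried the transcripts of fast muscle. Myh4, the myosin of the fastest fibres, had 54352, 39193 and 39989.7 CPM (counts scaled to library size, with TMM factors) in saline libraries 1 to 3 and 51774, 55433 and 39723 CPM in naive libraries 1 to 3. Acta1, skeletal muscle actin, averaged 30899 ± 1995 CPM in saline and 34005 ± 5186 CPM in naive muscle (SD, n = 3 each). Total counts per library lay between 16385233 and 20667289 in saline and between 19438491 and 24023003 in naive muscle. Mitochondrially encoded genes took 8.85% to 10.7% of the counts in saline and 11.6% to 13.5% in naive libraries. In bulk RNA, fewer cells of a type and less RNA per cell cannot be told apart.

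The libraries of one group differed from each other about as much as from those of the other group. The root mean square log2 difference over genes ran from 0.502 to 0.708 between a saline and a naive library. It was 0.443 to 0.589 between saline libraries and 0.523 to 0.735 between naive libraries. Naive 1, naive 2 and saline 1 each stood apart in some measure. Naive 1 had the highest level of all 20 measured heat shock genes, and it lay at -62.4 on the first principal component of the 6 libraries (31.8% of the variance), against 2.17 to 17.9 for the other 5. Naive 2 lay at 50.7 on the second component (26.7% of the variance), against -25.8 to 10.5 for the other 5. Saline 1 had the lowest level of 11 of 12 slow fibre genes. Without naive 2, edgeR called 0 of 16008 genes (0%). The lowest adjusted p was then 0.640, and 1239 genes had an unadjusted p under 0.05. In that fit the median log2 difference was 0.82 for class II, 0.68 for macrophage, 0.77 for complement, 0.51 for matrix, 0.47 for progenitor and 0.88 for cell division genes, lower than with all libraries for each of these 6 lists. Values below compare all 6 libraries, with the spread taken from all 12 of the series, unless a library is named as left out. Where leaving out naive 1, saline 1 or both moved a list by much, its values then are given too.

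With the quasi-likelihood test of edgeR 0 of 15715 genes (0%) passed at an adjusted p under 0.05, and the smallest adjusted p was 0.228. At an unadjusted p under 0.05, 1175 genes (7.48%) had a higher estimate and 683 (4.35%) a lower estimate in saline muscle. All 3 saline libraries exceeded all 3 naive libraries for 1498 genes (9.53%), and all 3 were below them for 1102 genes (7.01%). DESeq2, also fitted on all 12 libraries of the series, gave an adjusted p to 12626 genes and called 132 of them higher (1.05%) and 25 lower (0.198%). For 10997 genes (70.0%) the 95% interval of the difference lay within a 2-fold change either way. Among the 9787 genes that averaged 5 CPM or more this held for 9049 (92.5%). Of all tested genes 8209 (52.2%) had a higher estimate in saline muscle, and this share, with the shares above, is the background for the counts of gene groups that follow.

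Leaving out the libraries that stood apart changed which genes passed. Without saline 1, edgeR called 24 of 16134 genes (0.149%), all higher in saline, and DESeq2 on all 12 libraries of the series called 19 of them too. They held Cd74, H2-Aa, H2-Eb1, Adgre1, Ctss, Pld4, Syk, Trem2, Gpnmb and Rgs10, genes of macrophages and of antigen presentation. Saline 1 was the lowest saline library for Cd74, H2-Aa, H2-Eb1, Adgre1, Ctss, Syk, Trem2, Gpnmb and Rgs10, so leaving it out raised their differences. Without naive 1 edgeR called 1 gene of 16166 (0.00619%), Entpd4b. Without both it called 5 of 16119 (0.031%), namely Entpd4b, lower in saline, and Rgs10, Gal, Fbn1 and Pltp, higher in saline. Rgs10, a regulator of G-protein signalling in myeloid cells, had 2.50, 5.33 and 5.37 CPM in saline and 1.38, 1.07 and 1.58 CPM in naive libraries. Gal, which encodes the neuropeptide galanin, had 0.321, 3.03 and 2.91 CPM in saline and 0.50, 0.267 and 0.204 CPM in naive libraries, so saline 1 stood among the naive libraries. With all 6 libraries fitted alone Gal did not pass the filter on low counts. The fit without both left out the lowest saline library of Rgs10 and of Gal. Both genes are named here after their values were seen.

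Genes of antigen presentation by MHC class II were higher on balance in all 3 saline libraries. MHC class II molecules are made by macrophages, dendritic cells and B cells, which use them to show peptides to helper T cells, and their genes are switched on together by the coactivator CIITA. Of 14 measured genes of dendritic cells and MHC class II, 13 had a higher estimate in saline muscle. Of these 10 had an unadjusted p under 0.05 (against 7.48% of all tested genes) and 8 did not overlap between the groups (against 9.53%). At that p 0 were lower. DESeq2 called 6 of them higher. Their median log2 difference was 0.95, against 0.01 over all tested genes, and it was 1.08 without naive 1, 1.13 without saline 1 and 1.23 without both.

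H2-Aa, the alpha chain of the class II molecule I-A (ENSMUSG00000036594, mm10 chr17:34282744-34287823), had 22, 29.9 and 26.5 CPM in saline libraries 1 to 3 and 13.1, 11.4 and 16.3 CPM in naive libraries 1 to 3. Every saline library was above every naive one. The log2 difference was 0.94 ± 0.16 (SE; edgeR adjusted p = 0.228), with an adjusted p between 7.85e-04 and 0.640 over the other settings. H2-Ab1, its beta chain, had 25.1, 42.7 and 36.5 CPM in saline and 18.4, 11.8 and 21.9 CPM in naive libraries. H2-Eb1, the beta chain of I-E, had 19.2, 29.1 and 27.8 CPM in saline and 14.7, 9.91 and 16.4 CPM in naive libraries. Cd74, the invariant chain that guides class II molecules to the lysosome, had 49.6, 72.8 and 69.4 CPM in saline and 33.6, 28.8 and 42.2 CPM in naive libraries. For all 4 genes saline 1 was the lowest saline library and still above the highest naive one, and the log2 differences lay between 0.88 and 1.0. Ciita itself, named after its values were seen, was at 1.60, 2.75 and 2.51 CPM in saline and 1.63, 1.17 and 0.919 CPM in naive libraries, so that saline 1 stood level with naive 1 (log2 difference 0.90 ± 0.30, SE; edgeR adjusted p = 0.32).

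The promoters of class II genes are known for a shared upstream block, the X box and the Y box, on which CIITA acts. Runs of letters were looked for in RefSeq promoters of 300 bases (250 before to 50 after the gene's start, build GRCm38.p6). No X box sequence was searched for. The longest run of letters that the promoters of H2-Eb1 and H2-DMb1 share is AACTGATGATGCT, 13 bases, and this run and ATTGG, the core of a Y box, were searched on both strands. The sequences of 3 class II genes are shown because H2-Aa had the smallest p of the higher protein-coding genes that reached 5 CPM with no overlap, with every match to the shared run or to the Y box core in capitals. H2-Aa is at chr17:34287774-34288073 on the minus strand, H2-Eb1 at chr17:34305617-34305916 on the plus strand and H2-DMb1 at chr17:34152941-34153240 on the plus strand, all given 5′ to 3′ on the gene's strand.
H2-Aa: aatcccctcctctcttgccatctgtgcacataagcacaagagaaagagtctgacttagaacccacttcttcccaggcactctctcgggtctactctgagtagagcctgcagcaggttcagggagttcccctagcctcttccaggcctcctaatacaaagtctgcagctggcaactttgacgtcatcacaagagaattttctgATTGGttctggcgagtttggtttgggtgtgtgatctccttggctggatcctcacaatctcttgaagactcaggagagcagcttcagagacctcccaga
H2-Eb1: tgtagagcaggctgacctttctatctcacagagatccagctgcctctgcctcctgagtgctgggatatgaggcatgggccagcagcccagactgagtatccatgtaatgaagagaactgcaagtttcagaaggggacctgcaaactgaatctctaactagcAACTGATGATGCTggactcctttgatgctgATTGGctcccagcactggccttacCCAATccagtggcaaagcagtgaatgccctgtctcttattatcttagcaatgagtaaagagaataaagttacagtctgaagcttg
H2-DMb1: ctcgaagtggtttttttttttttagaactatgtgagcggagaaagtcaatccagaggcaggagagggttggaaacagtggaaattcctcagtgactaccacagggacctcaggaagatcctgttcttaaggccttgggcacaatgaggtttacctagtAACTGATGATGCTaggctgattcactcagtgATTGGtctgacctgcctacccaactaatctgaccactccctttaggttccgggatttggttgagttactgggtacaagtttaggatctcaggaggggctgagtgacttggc
In H2-Eb1 the shared run began 89 bases and ATTGG 59 bases before the start, so that their first bases lay 30 bases apart. In H2-DMb1 the run began 92 bases and ATTGG 61 bases before the start, 31 bases apart. H2-Aa held ATTGG 48 bases before its start and did not hold the shared run in this window, which does not show whether it has an X box. H2-DMa, another class II pathway gene, has 2 RefSeq promoters, of which neither held the shared run and 1 held ATTGG, 198 bases before its start. The second match in H2-Eb1, CCAAT, is the same Y box core read on the other strand. Of 32851 promoters of this length 3 (0.00913%) held the shared run, these 2 among them by construction, 12289 (37.4%) held ATTGG on either strand and 2 (0.00609%) held both. A match is a run of letters and was not tested as a binding site. H2-DMb1 shares reads with its near-identical neighbour H2-DMb2, and its level is not given.

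Macrophage genes were higher on balance in saline muscle, by amounts that differed between its libraries. Of 30 measured macrophage and monocyte genes, 27 had a higher estimate, 16 with an unadjusted p under 0.05 (against 7.48% of all tested genes). In 5 of the 30 every saline library was above every naive one (against 9.53%). DESeq2 called 6 of the 30 higher (against 1.05% of genes with an adjusted p) and 0 lower. The list's mean log2 CPM was 2.03, 3.07 and 3.44 in saline libraries 1 to 3 and 2.26, 1.17 and 2.05 in naive libraries 1 to 3, so saline 1 lay within the naive range. Saline 2 and saline 3 both exceeded every naive library for 20 of the 30 genes, against 16.0% of all tested genes. The median log2 difference was 0.91 with all libraries, 1.18 without naive 1, 1.13 without saline 1 and 1.43 without both.

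**Figure D1:**
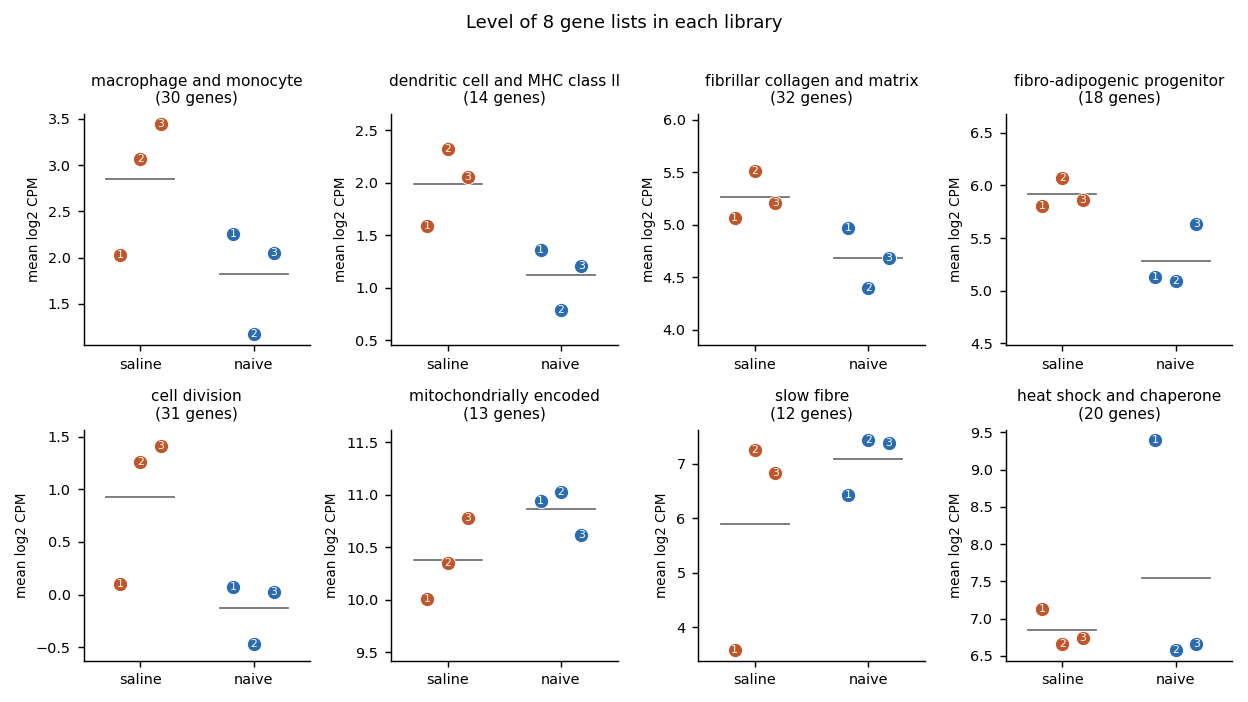
Mean log2 CPM of 8 gene lists in each library, with saline on the left and naive on the right of each panel. Numbers are the replicates and the grey line is the group mean. Saline 1 sits with the naive libraries for macrophage and cell division genes and far below all others for slow fibre genes (3.58), and naive 1 sits far above all others for heat shock genes (9.40).

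The macrophage genes Adgre1, Mrc1 and Cd163 were above the naive range in all 3 saline libraries. Adgre1, the gene of the macrophage antigen F4/80, had 4.75, 8.70 and 11.3 CPM in saline and 3.06, 1.87 and 3.42 CPM in naive libraries (log2 difference 1.58 ± 0.34, SE; edgeR adjusted p = 0.26). Mrc1, the mannose receptor of tissue macrophages, had 18.5, 21.8 and 26.0 CPM in saline and 12.9, 10.3 and 17.6 CPM in naive libraries. Cd163, the macrophage receptor for haemoglobin, had 23.4, 23.9 and 24.4 CPM in saline and 11.1, 13.1 and 22.4 CPM in naive libraries. The highest naive library was naive 3 for each of these 3 genes. Lyve1, a receptor of vessel-associated resident macrophages and of lymphatic endothelium, had 13.9, 13.5 and 14.8 CPM in saline and 6.56, 5.70 and 13.8 CPM in naive libraries, and Timd4, a receptor for dying cells, had 1.35, 0.842 and 1.25 CPM in saline and 0.375, 0.480 and 1.33 CPM in naive libraries. For both, naive 3 overlapped the saline libraries.

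For 3 other macrophage genes saline 1 stood with the naive libraries. Trem2, a lipid-sensing receptor of macrophages, had 0.321, 5.45 and 7.37 CPM in saline and 0.750, 0.320 and 0.663 CPM in naive libraries. Gpnmb, a glycoprotein they carry on lysosomes and the cell surface, had 2.31, 21.3 and 43.4 CPM in saline and 1.44, 2.40 and 4.44 CPM in naive libraries. Ctss, the lysosomal protease cathepsin S, had 5.77, 34.0 and 47.3 CPM in saline and 7.63, 4.32 and 8.57 CPM in naive libraries. For all 3 genes saline 1 lay within the naive range and saline 2 and 3 lay above it, and Trem2 and Gpnmb are named here after their values were seen. With all libraries the log2 differences were 2.96 ± 0.88 for Trem2, 3.00 ± 0.88 for Gpnmb and 2.09 ± 0.66 for Ctss (SE; edgeR adjusted p = 0.319, 0.319 and 0.323). Without saline 1 they were 3.49, 3.55 and 2.59, and all 3 passed. That fit left out the lowest saline library of each of these genes, so the calls depend on which library was left out. In the 3 bupivacaine-injured libraries of the series Trem2 spanned 15.7 to 28.7 CPM and Gpnmb 97.2 to 205 CPM.

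Syk, Ptprj and Pld4 were among the 12 coding genes with the smallest p that reached 5 CPM and were higher in every saline library. Syk, a kinase that acts behind Fc and C-type lectin receptors (ENSMUSG00000021457, mm10 chr13:52583173-52648792), had 6.61, 9.77 and 8.43 CPM in saline and 3.88, 2.72 and 4.24 CPM in naive libraries, differing by a log2 of 1.20 ± 0.22 (SE; edgeR adjusted p = 0.228). Ptprj, a receptor tyrosine phosphatase of leukocytes and endothelium, averaged 8.15 ± 0.989 CPM in saline and 4.35 ± 0.577 CPM in naive muscle (SD, n = 3 each). Pld4, an endolysosomal exonuclease of myeloid cells, averaged 8.09 ± 2.0 CPM in saline and 3.61 ± 0.811 CPM in naive muscle (SD, n = 3 each). They were taken because their groups did not overlap, so their sign could not turn when naive 1, saline 1 or both were left out.

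Complement, the cascade of plasma proteins that tags debris and microbes, had all 15 measured genes at a higher estimate in saline muscle. Of these 11 had an unadjusted p under 0.05 (against 7.48% of all tested genes), 5 did not overlap (against 9.53%) and DESeq2 called 3 higher. C3, its central component, had 150.4, 123 and 111 CPM in saline and 56.6, 56.0 and 85.7 CPM in naive libraries (log2 difference 0.95 ± 0.22, SE; edgeR adjusted p = 0.26). C3 was highest in saline 1. C1qa and C1qb, subunits of the recognition protein that macrophages secrete and members of the macrophage list as well, averaged 38.1 ± 11.1 and 31.4 ± 10.3 CPM in saline and 16.9 ± 8.97 and 14.8 ± 5.0 CPM in naive muscle (SD, n = 3 each). Cfd, or adipsin, is a complement protease made by fat cells and had 144, 89.7 and 46.1 CPM in saline and 12.1, 53.7 and 58.6 CPM in naive libraries, so its groups overlapped.

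Lysosomal genes had smaller differences. Of 20 measured, 18 had a higher estimate in saline, 8 with an unadjusted p under 0.05, and their median log2 difference was 0.31, or 0.46 without both libraries. Grn, the progranulin of lysosomes and macrophages, had 30.9, 48.6 and 60.9 CPM in saline and 22, 18.7 and 33.0 CPM in naive libraries, where saline 1 overlapped naive 3. Psap, the abundant activator protein of lysosomal lipid breakdown, differed less, at 1139 ± 88.8 CPM in saline and 1025 ± 69.8 CPM in naive muscle (SD, n = 3 each).

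Connective tissue genes were higher on balance in all 3 saline libraries. Of 32 measured collagen and matrix genes, 28 had a higher estimate in saline, 19 with an unadjusted p under 0.05 and 0 lower at that p. In 17 of the 32 (against 9.53% of all genes) the groups did not overlap, and DESeq2 called 8 higher. The median log2 difference was 0.62 with all libraries and between 0.72 and 0.80 without naive 1, saline 1 or both. Col3a1, the fibrillar collagen of young and repairing tissue (ENSMUSG00000026043, mm10 chr1:45311538-45349706), had 298, 416 and 368 CPM in saline and 202, 155 and 175 CPM in naive libraries, differing by a log2 of 1.02 ± 0.20 (SE; edgeR adjusted p = 0.228). Col1a2, a chain of type I collagen, had 191, 276 and 236 CPM in saline and 104, 126 and 147 CPM in naive libraries. Saline 1 was the lowest saline library for both collagens and lay above every naive one.

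Type VI collagen, the beaded network next to the fibre surface, differed in the same way. Col6a2 had 119, 137 and 108 CPM in saline and 80.7, 58.5 and 75.9 CPM in naive libraries (log2 difference 0.76 ± 0.15, SE; edgeR adjusted p = 0.228). Col6a1 had 98.7, 109 and 92.7 CPM in saline and 68.6, 52.5 and 71.3 CPM in naive libraries (log2 difference 0.64), and the groups did not overlap. Dcn, the collagen-binding proteoglycan decorin, had 453, 501 and 494 CPM in saline and 257, 315 and 472 CPM in naive libraries, where naive 3 overlapped saline 1. Among 13 basement membrane genes, 12 had a higher estimate, 7 with an unadjusted p under 0.05, at a median log2 difference of 0.28. Without naive 1 all 13 had a higher estimate, 11 with such a p, at a median of 0.45. Col18a1, the source of endostatin, had 21.4, 16.0 and 15.2 CPM in saline and 12.1, 11.1 and 11.8 CPM in naive libraries. Nid1, the linker protein nidogen, had 122, 128 and 122 CPM in saline and 79.1, 68.2 and 103 CPM in naive libraries, and Lamb1, a laminin chain, averaged 42.2 ± 3.69 CPM in saline and 29.8 ± 4.37 CPM in naive muscle (SD, n = 3 each). The heparan sulfate proteoglycan Hspg2 differed less, by a log2 of 0.22 ± 0.13 (SE; edgeR adjusted p = 0.509).

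Markers of the cells that make this matrix were higher too. All 18 measured fibro-adipogenic progenitor genes had a higher estimate in saline, 13 with an unadjusted p under 0.05 (against 7.48% of all tested genes). In 10 the groups did not overlap (against 9.53%), while DESeq2 called 2. The median log2 difference was 0.54, and it lay between 0.54 and 0.62 without naive 1, saline 1 or both. Thy1, a surface protein of fibroblasts, had 11.5, 16.7 and 12.4 CPM in saline and 8.19, 6.08 and 8.67 CPM in naive libraries (log2 difference 0.82 ± 0.20, SE; edgeR adjusted p = 0.26). Pdgfra, the growth factor receptor that defines these cells, had 36.8, 41.8 and 34.9 CPM in saline and 29.1, 20.5 and 31.7 CPM in naive libraries. Dpt, a matrix protein of a progenitor subset, had 111, 114 and 83.7 CPM in saline and 53.6, 54.9 and 85.8 CPM in naive libraries, so saline 3 and naive 3 overlapped. The summed level of the 18 progenitor genes spanned 2714 to 2971 CPM in saline and 1563 to 2514 CPM in naive libraries, and its part in the matrix values was not tested.

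**Figure D2:**
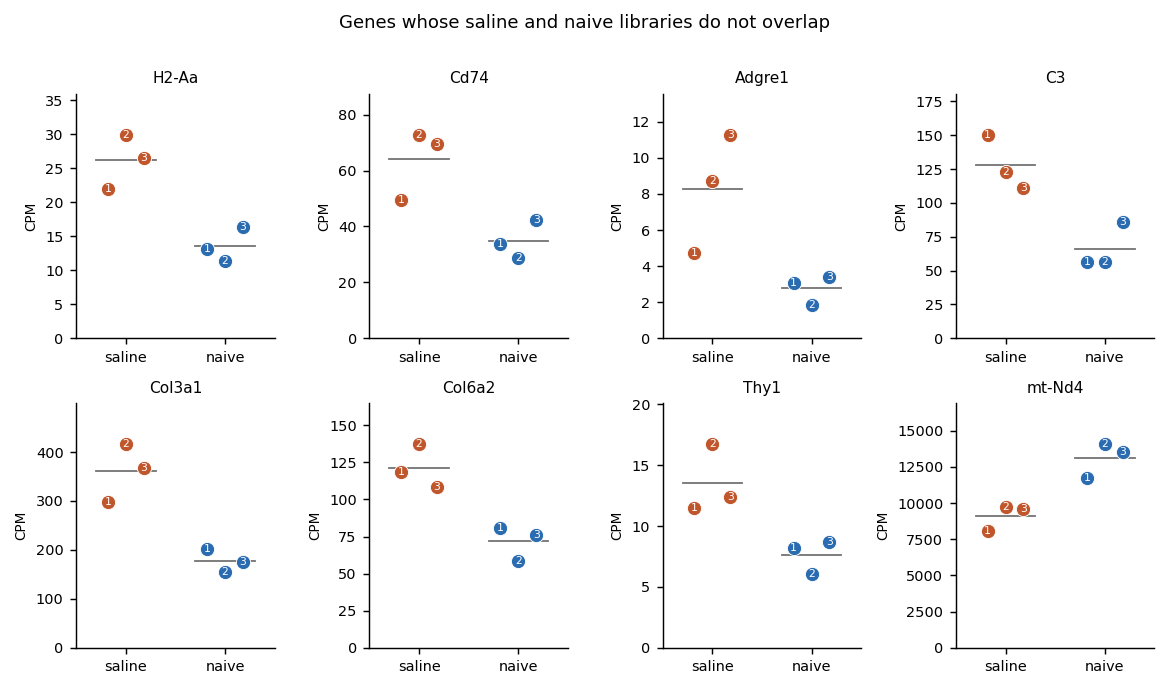
CPM of 8 genes in each library, saline left and naive right, with replicate numbers on the points and group means as grey lines. For all 8 the groups do not overlap: the class II, macrophage, complement, collagen and fibroblast genes are higher and mt-Nd4 lower in every saline library.

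Genes of cell division were higher in saline 2 and saline 3. Of 31 measured in the fit of all 12 libraries of the series, 30 had a higher estimate in saline. Of these 17 had an unadjusted p under 0.05 (against 7.48% of all tested genes), and DESeq2 called 7. The median log2 difference was 1.35 in the fit of all 12 libraries of the series and 0.75 in a fit of these 6 alone. These medians cover different genes, since Ccnb1 and Cdk1 passed the filter on low counts only with the bupivacaine libraries. The counts above include both genes. Mki67 and Kif23 were in both fits and hardly moved, at 2.99 and 2.95 and at 2.66 and 2.63. The list's mean log2 CPM was 0.10, 1.26 and 1.41 in saline and 0.07, -0.47 and 0.02 in naive libraries, and saline 1 was close to the highest naive library. Mki67, the proliferation marker Ki-67 (ENSMUSG00000031004, mm10 chr7:135689784-135716361), had 1.15, 4.32 and 5.07 CPM in saline and 0.813, 0.213 and 0.357 CPM in naive libraries, differing by a log2 of 2.99 ± 0.77 (SE; edgeR adjusted p = 0.284). Ccnb1, cyclin B1, had 0.321, 0.842 and 0.903 CPM in saline and 0.188, 0.0533 and 0.0510 CPM in naive libraries. Kif23, a motor of the dividing cell's midbody, had 0.770, 1.12 and 1.66 CPM in saline and 0.375, 0 and 0.204 CPM in naive libraries. Cdk1, the kinase that starts mitosis, had 0.128, 0.898 and 1.35 CPM in saline and 0.188, 0.0533 and 0.0510 CPM in naive libraries, and there saline 1 overlapped naive 1. These levels are low, and the fitted differences rest on few reads. In bupivacaine-injured muscle Mki67 spanned 10.2 to 32.4 CPM. Which cells divided cannot be read from bulk RNA.

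Some transcripts of fusing myoblasts and new fibres were higher in saline 2 and saline 3 than in every naive library. This held for 6 of 13 embryonic and regenerating fibre genes and 5 of 17 myogenic regulators, against 16.0% of all tested genes. The median log2 difference was 0.18 for each of these lists. Mymk, the membrane protein myomaker that fuses myoblasts, was at 0, 3.09 and 2.36 CPM in saline and 0.188, 0.160 and 0.0510 CPM in naive libraries. Its partner Mymx, or myomixer, was at 0, 2.53 and 1.0 CPM in saline and 0.563, 0 and 0.102 CPM in naive libraries. Myh3, embryonic myosin, had 1.09, 18.0 and 13.3 CPM in saline and 3.06, 4.85 and 3.47 CPM in naive libraries, and Chrng, a receptor subunit for acetylcholine that fetal and regenerating fibres use, had 0.192, 1.40 and 2.56 CPM in saline and 0.438, 0.107 and 0.0510 CPM in naive libraries. Saline 1 lay within or below the naive range for all 4 genes, and saline 2 and 3 lay above it. Myog, the transcription factor of differentiating myoblasts, had 5.97, 17.2 and 15.0 CPM in saline and 10.6, 4.32 and 5.26 CPM in naive libraries. None of these genes passed with all libraries (edgeR adjusted p between 0.329 and 0.497). A fit of the 2 groups alone without naive 1 and saline 1 kept 2 libraries per group. There Mymk, Myh3, Myog and Chrng were among 86 of 14512 genes called (0.593%). This fit left out the lowest saline library of each of these genes. With all 6 libraries fitted alone Mymk and Chrng did not pass the filter on low counts. The calls thus depend on which libraries were left out. DESeq2 on all libraries called none of these genes, and neither did edgeR without naive 1 and saline 1 in the fit with the bupivacaine groups, where the adjusted p was 0.139 for Mymk, 0.399 for Myh3, 0.203 for Myog and 0.234 for Chrng. In bupivacaine-injured muscle Mymk spanned 8.27 to 23.7 CPM and Myh3 37.4 to 133 CPM.

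The marker of resident stem cells did not pass. Pax7, the transcription factor that defines satellite cells and named after its values were seen, averaged 3.84 ± 0.827 CPM in saline and 3.00 ± 0.446 CPM in naive muscle (SD, n = 3 each; log2 difference 0.36 ± 0.24, SE; edgeR adjusted p = 0.547), and its log2 difference was 0.64 without naive 1 and saline 1. Of 17 measured myogenic regulators 12 had a higher estimate, 1 of them with an unadjusted p under 0.05, and of 13 genes of embryonic and regenerating fibres 9 had a higher estimate, 2 of them with such a p. Without naive 1, 16 of the 17 regulators had a higher estimate, 4 with such a p. H19, an imprinted noncoding RNA of that list, went the other way, at 237, 409 and 317 CPM in saline and 451, 521 and 435 CPM in naive libraries. Among 23 growth factors Hgf, which wakes satellite cells, had 0.321, 0.393 and 0.451 CPM in saline and 0, 0.0533 and 0.0510 CPM in naive libraries, with no overlap at a low level. Among 20 genes of fibre stress and membrane repair 5 had a higher estimate, 3 with an unadjusted p under 0.05, and 15 a lower one, 2 with such a p. Of the higher ones Anxa1 and Myof, proteins that patch torn membranes, were higher in every saline library, at 34.9 ± 5.82 and 13 ± 2.66 CPM in saline and 21.4 ± 4.94 and 7.20 ± 1.40 CPM in naive muscle (SD, n = 3 each).

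**Figure D3:**
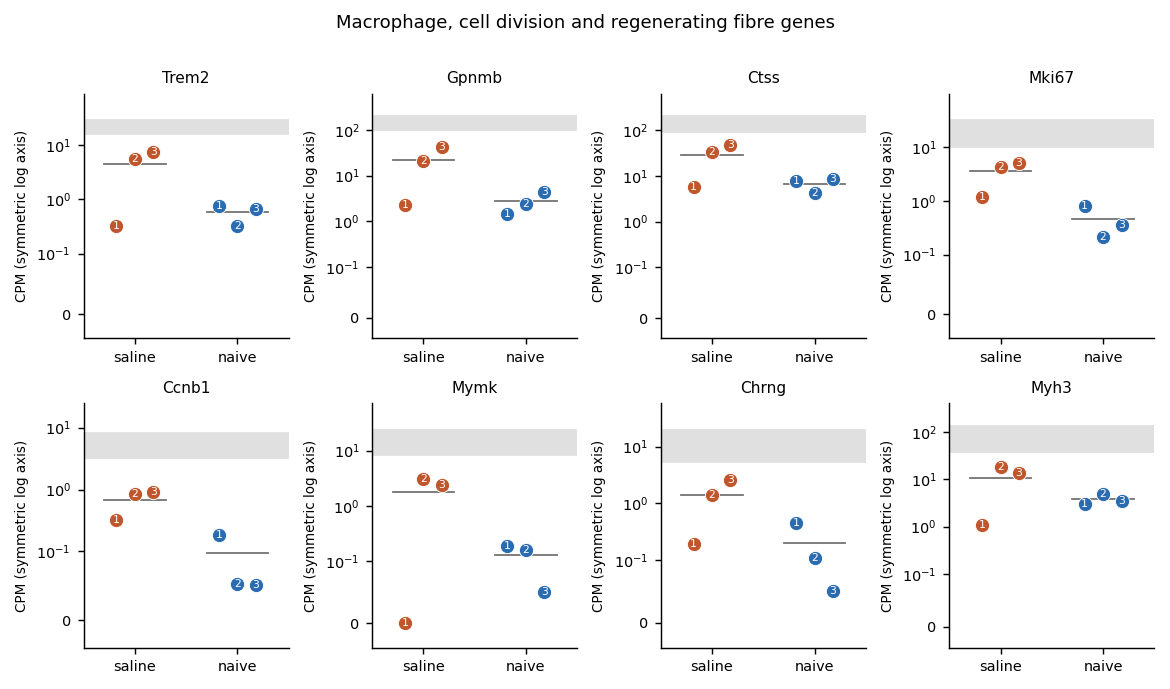
CPM of 8 genes of phagocytic macrophages, cell division and new fibres in each library, on an axis that is linear below 0.1 CPM and logarithmic above. Saline is left and naive right, and the grey band runs from the lowest to the highest of the 3 bupivacaine-injured libraries. Saline 2 and 3 lie above every naive library and below the injured band in all 8 panels, and saline 1 lies below both of them.

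Energy metabolism had lower estimates in saline muscle. All 26 measured nuclear genes of oxidative phosphorylation had a lower estimate, 7 with an unadjusted p under 0.05 and 7 with no overlap, at a median log2 difference of -0.31. Of the 13 mitochondrially encoded genes 12 had a lower estimate, 6 with an unadjusted p under 0.05 and 7 with no overlap, at a median of -0.51. Over all tested genes 4.35% were lower at such a p and 7.01% were lower with no overlap. mt-Nd4, a subunit of respiratory complex I, had 8106, 9703 and 9585 CPM in saline and 11769, 14082 and 13549 CPM in naive libraries (log2 difference -0.52 ± 0.17, SE; edgeR adjusted p = 0.319). Its neighbour mt-Nd1 had 14700.3, 15377 and 16172 CPM in saline and 20747, 24738 and 20341 CPM in naive libraries. Neither gene overlapped between the groups. Ndufa1, a nuclear subunit of the same complex, had 85.8, 120.3 and 91.2 CPM in saline and 111, 128 and 133 CPM in naive libraries, and Atp5b, the catalytic subunit of ATP synthase, averaged 3100.3 ± 513 CPM in saline and 3749.9 ± 282 CPM in naive muscle (SD, n = 3 each).

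Saline 1 was the lowest of the 6 libraries for all 26 nuclear genes and for 11 of the 13 mitochondrially encoded ones. Without it the medians were -0.17 and -0.41, with 0 of the 26 and 2 of the 13 at an unadjusted p under 0.05, and without both doubted libraries they were -0.21 and -0.44. Fatty acid oxidation genes depended on it more. Of 22 measured, 21 had a lower estimate, 0 with an unadjusted p under 0.05, and their median log2 difference was -0.32 with all libraries and -0.07 without saline 1. Etfa, which passes electrons from fatty acid oxidation to the respiratory chain, had 143, 248 and 220.1 CPM in saline and 233, 274 and 276 CPM in naive libraries.

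The fibre type of saline 1 differed from that of the other 5 libraries. Tnnt1, the slow troponin T and named after its values were seen, had 3.46, 131 and 96.9 CPM in saline and 61.3, 178 and 161 CPM in naive libraries. Atp2a2, the slow calcium pump, had 57.9, 437 and 339 CPM in saline and 296, 548 and 504 CPM in naive libraries. Myh2, the myosin of fast oxidative fibres and also named after its values were seen, had 494, 3311 and 3209 CPM in saline and 2822, 3618 and 2951 CPM in naive libraries. Myh1, of intermediate fast fibres, had 1064, 3097 and 3460.0 CPM in saline and 4101, 4022 and 2814 CPM in naive libraries. In saline 1 all 4 were the lowest of the 6 libraries, while Myh4 was at 54352 CPM there. For the 12 slow fibre genes the median log2 difference was -0.69 with all libraries, -0.11 without saline 1 and -0.40 without both saline 1 and naive 1. The gastrocnemius has a red, oxidative and a white, glycolytic region, and which of them each sample held is not stated; its part in the lower metabolic genes was not tested.

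Naive 1 held heat shock transcripts far above the other 5 libraries. Dnajb1, a co-chaperone induced by heat shock, had 8.92, 8.76 and 11.2 CPM in saline and 424, 7.78 and 11.4 CPM in naive libraries. Hsp90aa1, the inducible HSP90, had 72.0, 55.6 and 54.7 CPM in saline and 1001, 62.7 and 50.4 CPM in naive libraries. Atf3, an early transcription factor of stressed cells, had 27.0, 7.19 and 16.3 CPM in saline and 538, 6.66 and 9.80 CPM in naive libraries. Over 20 heat shock and chaperone genes the median log2 difference was -0.83 with all libraries and 0.07 without naive 1. Hspd1, the mitochondrial chaperonin, had 221, 210.2 and 224 CPM in saline and 551, 279 and 256 CPM in naive libraries, with no overlap and a log2 difference of -0.28 without naive 1.

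The same library also stood apart for genes of strained fibres, chemokines and neutrophils. Ankrd1, a titin-bound protein induced by stretch, had 76.3, 24.7 and 51.2 CPM in saline and 936, 19.9 and 25.8 CPM in naive libraries. Flnc, the muscle filamin that marks damaged sarcomeres, had 1735, 1124 and 1431 CPM in saline and 8480.5, 1092 and 1084 CPM in naive libraries. Myod1, the transcription factor of activated myogenic cells, had 22.6, 27.9 and 24.7 CPM in saline and 195, 19.3 and 19.4 CPM in naive libraries. Ccl2, the chemokine that draws monocytes, had 1.48, 0.730 and 1.15 CPM in saline and 21.5, 0.213 and 0.561 CPM in naive libraries. Cxcl5, a chemokine for neutrophils, had 0, 0.112 and 0 CPM in saline and 12, 0 and 0 CPM in naive libraries. S100a9, an abundant protein of neutrophils, had 0.0642, 0.112 and 0.10 CPM in saline and 2.94, 0 and 0.0510 CPM in naive libraries. In naive 1 each of these 6 genes was the highest of the 6 libraries, as were 15 of 20 fibre stress genes, 16 of 26 immediate early genes and 12 of 21 cytokine genes, against 18.2% of all tested genes. Ankrd1 and Ccl2 are named here after their values were seen.

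**Figure D4:**
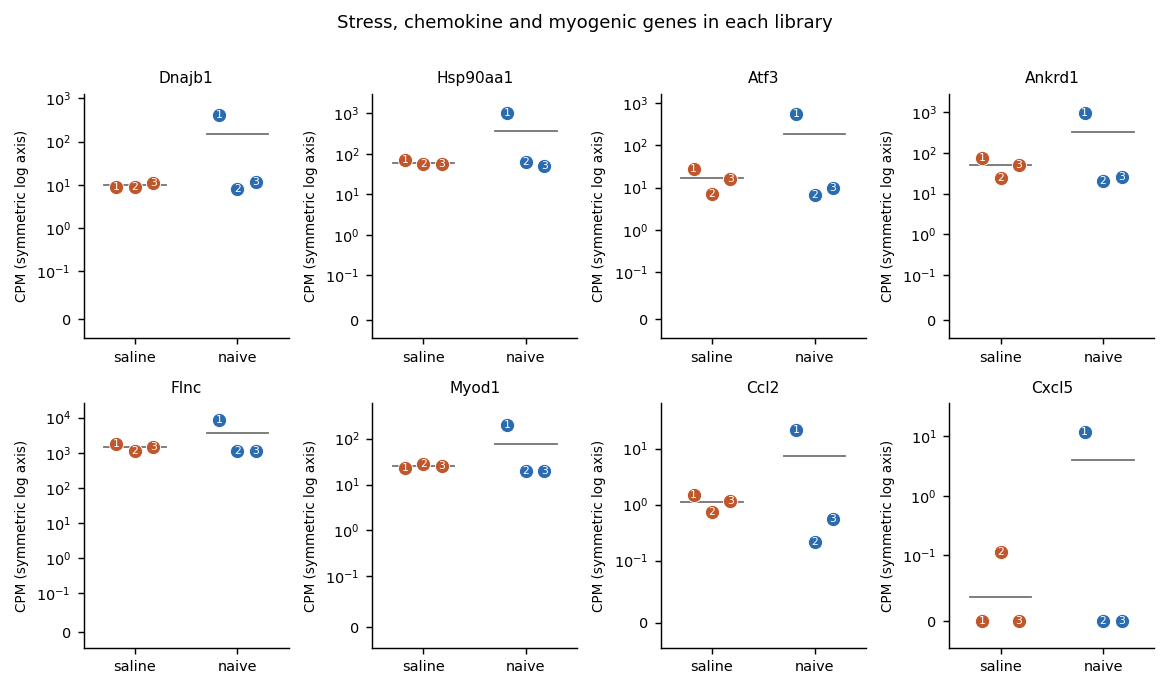
CPM of 8 stress, fibre and chemokine genes in each library, on an axis that is linear below 0.1 CPM and logarithmic above, with saline left and naive right. Naive 1 is the highest point of every panel, and the naive mean (grey line) lies above naive 2 and naive 3 in each.

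With naive 1 left out, several of these lists had higher estimates in saline muscle. The median log2 difference of 21 cytokine and chemokine genes was -0.01 with all libraries and 0.62 without naive 1, where 17 had a higher estimate and 0 an unadjusted p under 0.05. For 26 immediate early genes it was -0.20 with all libraries and 0.18 without naive 1, and for 20 genes of fibre stress and membrane repair -0.35 and 0.15. In that fit the log2 difference was 1.04 for Atf3, 1.16 for Ankrd1 and 1.51 for Ccl2, none of which passed. Tgfb1, the cytokine that drives matrix production, hardly moved with that choice, at 0.62 ± 0.26 (SE; edgeR adjusted p = 0.398) with all libraries and 0.64 without naive 1.

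Markers of several other cell types were measured. Neutrophil markers summed to 5.77 to 7.42 CPM in saline and 3.25 to 14.7 CPM in naive libraries, 7 of 15 passed the filter on low counts, and Ly6g and Elane were at 0 in all 3 saline libraries. Lymphocyte and natural killer cell markers had 7 of 20 past that filter, with a median log2 difference of 0.19 and 0 at an unadjusted p under 0.05. All 7 measured mast cell genes had a higher estimate, 2 with an unadjusted p under 0.05 (against 7.48% of all tested genes). Their median log2 difference was 0.64, or 0.44 without naive 1, 0.83 without saline 1, 0.59 without both and 0.41 without naive 2. Cma1, the mast cell chymase, had 5.32, 6.01 and 6.92 CPM in saline and 2.56, 1.92 and 4.69 CPM in naive libraries. Of 17 endothelial genes 15 had a higher estimate and 0 an unadjusted p under 0.05 with all libraries, at a median of 0.11. Without naive 1, 16 had a higher estimate, 7 with such a p, at a median of 0.30, and without naive 2 the median was -0.01. With all libraries, for all 17 the 95% interval lay within a 2-fold change either way, with Vwf at 40.8 ± 2.02 CPM in saline and 32.9 ± 4.32 CPM in naive muscle (SD, n = 3 each). Of 10 skin genes 2 passed the filter, and the keratins Krt5 and Krt14 were at 0 in all 6 libraries.

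Fat transcripts depended on naive 1 and saline 1, and nerve transcripts on saline 1. Of 14 adipocyte genes 12 had a higher estimate, at a median log2 difference of 0.86 with all libraries, 0.52 without naive 1, 0.72 without saline 1 and 0.31 without both. Adipoq, the fat cell hormone adiponectin, had 35.9, 27.5 and 11.6 CPM in saline and 4.06, 14.1 and 15.1 CPM in naive libraries, and Lep, leptin, had 16.2, 12.1 and 7.17 CPM in saline and 2.44, 7.46 and 6.33 CPM in naive libraries. Naive 1 was the lowest library for 12 of the 14 and saline 1 the highest for 10. All 12 Schwann cell and myelin genes were highest in saline 1. Their median log2 difference was 0.46 with all libraries and 0.07 without saline 1. The 12 nerve genes summed to 68.0 to 159 CPM in saline and 66.2 to 85.3 CPM in naive libraries. The share of fat and nerve that each sample held is not stated, and its part in the matrix and complement values was not tested.

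With all libraries, no gene of the glucocorticoid, interferon or circadian lists reached an unadjusted p under 0.05. Of 20 glucocorticoid and fasting genes 12 had a higher estimate, at a median log2 difference of 0.03, and the 95% interval lay within a 2-fold change either way for 11. Pdk4, a kinase that spares glucose in fasting, had 334, 579 and 321 CPM in saline and 876, 647 and 316 CPM in naive libraries, where naive 3 was the lowest of the 6. Of 20 interferon response genes 18 had a higher estimate, at a median of 0.29, with 6 intervals within 2-fold, and Gbp2, a guanylate-binding protein of that response, averaged 6.65 ± 0.532 CPM in saline and 4.73 ± 0.581 CPM in naive muscle (SD, n = 3 each). Without naive 1 all 20 interferon genes had a higher estimate, 4 with an unadjusted p under 0.05, at a median of 0.57, and without saline 1 the median was 0.16. Of 19 circadian clock genes 11 had a higher estimate, at a median of 0.03, with 14 intervals within 2-fold. Without saline 1, 1 clock gene had a lower estimate at an unadjusted p under 0.05. Arntl, the clock activator BMAL1, had 15.2, 9.21 and 6.02 CPM in saline and 42.2, 12 and 4.75 CPM in naive libraries. Its spread was widest among naive libraries, while Per2 averaged 27.2 ± 4.22 CPM in saline and 23.4 ± 3.77 CPM in naive muscle (SD, n = 3 each). Naive 1 was the lowest library for 10 of the 19 clock genes and the highest for 5. At the neuromuscular junction Colq and Ache, which anchor and form acetylcholinesterase, were higher in all 3 saline libraries, at 12.8 ± 1.11 and 56.4 ± 1.81 CPM in saline and 9.91 ± 1.57 and 45.2 ± 2.12 CPM in naive muscle (SD, n = 3 each), with an edgeR adjusted p of 0.356 and 0.364.

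The heme and iron genes had a median log2 difference of 0.47, and of 0.52, 0.56 and 0.54 without naive 1, saline 1 and both. Of 13 measured, 8 had a higher estimate, 4 with an unadjusted p under 0.05, and 1 was lower at such a p. Among the higher ones was Slc11a1, an iron transporter of phagosomes, at 3.53, 4.27 and 5.62 CPM in saline and 2.06, 1.81 and 2.60 CPM in naive libraries. Blvrb, which reduces the heme product biliverdin, averaged 7.53 ± 0.882 CPM in saline and 5.42 ± 1.06 CPM in naive muscle (SD, n = 3 each). The 6 measured red blood cell genes were lower in estimate, at a median log2 difference of -1.18, and naive 3 alone summed to 539 CPM for that list, against 70.2 to 156 CPM in saline and 73.1 and 129 CPM in the other naive libraries. The median was -0.07 for glycolysis, -0.19 for fast fibre, 0.09 for pericyte and smooth muscle and 0.16 for tendon genes with all libraries, and without naive 1 it was 0.27 for pericyte and smooth muscle and -0.02 for tendon genes. For atrophy, growth factor, endoplasmic reticulum stress and p53 target genes it lay between 0.02 and 0.08 with all libraries and between 0.13 and 0.21 without naive 1.

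**Figure D5:**
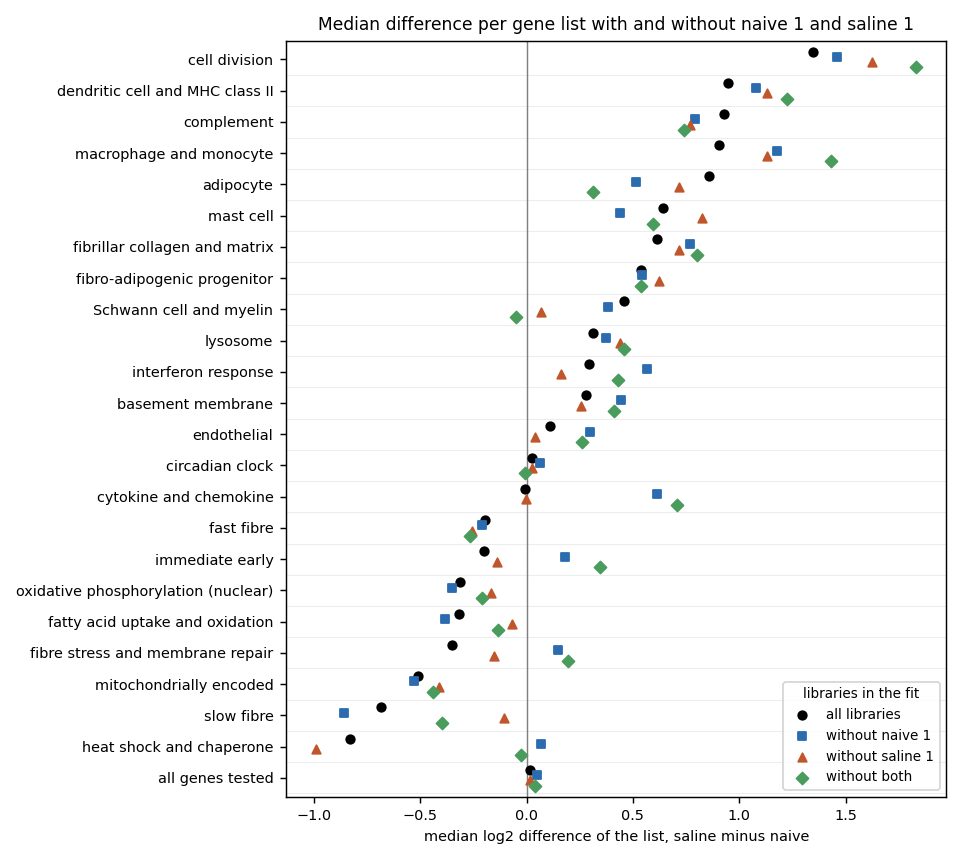
Median log2 difference, saline minus naive, of 23 gene lists and of all tested genes, fitted with all libraries, without naive 1, without saline 1 and without both. Cell division, class II, complement, macrophage, matrix and progenitor lists stay above 0.5 in all 4 fits, each of which includes the bupivacaine libraries. Heat shock, cytokine, immediate early and fibre stress lists cross 0 without naive 1, and slow fibre and fatty acid lists move toward 0 without saline 1.

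Genes were also taken by the smallest p alone, in either direction. Of the 12 coding genes that had the smallest p and a lower level in every saline library, Entpd4b, Tomm40l and Rhot2 share exons with another gene. Entpd4b had 0.513, 0.449 and 0.853 CPM in saline and 2.0, 11.0 and 11.8 CPM in naive libraries, the gene that edgeR called without naive 1 (adjusted p = 7.25e-05), and its reads cannot be told apart from those of its near-identical copy. For the other 9 the log2 differences lay between -0.64 and -0.34. Hmgn5, a nucleosome-binding protein, had 8.53, 9.43 and 8.33 CPM in saline and 12, 15.6 and 13.3 CPM in naive libraries. Mrpl42, a protein of the mitochondrial ribosome, had 152, 169 and 138 CPM in saline and 191, 214 and 199.9 CPM in naive libraries. Ppa2 and Rmnd1, which also encode mitochondrial proteins, had log2 differences of -0.39 and -0.39. Stau2, an RNA-binding protein, Cops6, a subunit of the COP9 signalosome, Gzf1, a zinc finger protein, Pdcl3, a chaperone-like protein, and Tmf1, a Golgi protein, made up the rest. All 12 kept their sign without naive 1, saline 1 or both, which follows from the rule, since their groups do not overlap. The 12 with the smallest p among higher genes were taken by the same rule and kept their sign likewise. They include Man1c1, a Golgi mannosidase, and Retreg2, a receptor of endoplasmic reticulum turnover, with log2 differences of 0.80 and 0.53.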

How the data were processed

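Muscle RNA of 12 mouse samples was sequenced, 3 per group, and the groups were taken from the sample titles. The count table as deposited holds whole-number counts per gene ID, and the authors' FPKM table holds the same libraries as FPKM. HISAT2 2.0.5 placed the reads on mm10, per the submitters' processing notes. The counting tool, strand setting and annotation are not given in the sources used here, so genes that overlap or share reads with near-identical copies are uncertain, and those with over 10% of exon overlap were not used as examples unless stated. Symbols and coordinates came from GENCODE M21 (54409 of 54532 gene IDs had a symbol).

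Counts were fitted with edgeR 4.0.16 in R 4.3.3 (quasi-likelihood test, robust, TMM scaling, filter on low counts by group, two-sided, Benjamini-Hochberg adjustment). The 12 libraries were fitted together, each group with its own mean, for the contrast saline minus naive, so that the bupivacaine groups entered the estimate of the spread. Levels are TMM-scaled CPM, and mean log2 CPM used a prior count of 2. Total counts lay between 16385233 and 24023003 in the 6 libraries. Other settings were DESeq2 1.42.0, its size factors, other filters, a replicate block, the 6 libraries alone, limma 3.58.1 (voom with quality weights, and log2(FPKM + 1) or log2(FPKM + 0.1)), and leaving out each library or both naive 1 and saline 1. The edgeR and DESeq2 fits were also run on simulated counts, with 200 genes changed by known folds. The simulation used the edgeR estimate of the spread and no library that stood apart, so it does not decide between these tools.

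The comparison and the 39 gene lists were chosen with earlier results of these data known, and lists are described by counts and medians with no test of their own. Examples are the 12 genes with the smallest p in each direction that reached 5 CPM and did not overlap, up to 4 members per list by p and 2 by CPM, and genes that passed without a library. Lists share some genes, such as C1qa and Dcn. List medians without naive 1, saline 1, both or naive 2 were added after seeing the data. Same-numbered saline and naive libraries correlated in their deviations from the group means at 0.0672, 0.111 and 0.0822 for numbers 1 to 3, and since only number 2 was over the 0.1 asked of every pair the numbers were not taken to pair the samples, so no block was fitted in the values given.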

Additional observations from a re-analysis of the deposited data

How the results depend on the processing

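The count of genes at an adjusted p under 0.05 was 0 with edgeR as described and 0 with DESeq2's size factors, a stricter filter, the 6 libraries alone, limma-voom, both FPKM settings and without mitochondrially encoded genes. It was 157 with DESeq2's own test on all 12 libraries, 25 with no filter on low counts and 5 without naive 1 and saline 1. It was 86 in a fit of saline 2, saline 3, naive 2 and naive 3 alone. The smallest edgeR adjusted p was 0.228 as described and 0.510 with the 6 libraries alone. Leaving out 1 library gave 0 to 24 calls: 24 without saline 1, 13 without naive 3, 1 without naive 1 and 0 without each other library. A replicate block gave 0 calls in 12 libraries and 0 in 6, as without it, and it was not added to the other fits. The highest correlation of every library was with the one of its own number, a hint from the data and not the design. Some genes changed sign. Over the fits that leave out 1 library the log2 difference ran from -4.49 to 0.03 for Dnajb1, -3.13 to 0.12 for Hsp90aa1, -4.03 to 1.04 for Atf3, -3.25 to 1.16 for Ankrd1, -1.74 to 0.41 for Flnc, -3.29 to 1.51 for Ccl2, -9.48 to 2.98 for Cxcl5, -2.09 to 0.39 for Myod1, -3.88 to 1.67 for S100a9 and -1.42 to 0.29 for Arntl, each positive without naive 1 alone. It ran from -0.74 to 0.073 for Myh2, reversed without saline 1. Without both it was 0.083 for Dnajb1, 0.54 for Atf3, 0.75 for Ankrd1, 0.25 for Flnc, 1.29 for Ccl2, 3.47 for Cxcl5, 0.46 for Myod1, 1.85 for S100a9 and 0.01 for Myh2. With log2(FPKM + 1), which compresses low values, the median was 0.36 for class II, 0.58 for complement and 0.16 for cell division genes. Several cell division and fusion genes were under 1 CPM, and their values rest on few reads. The causes of these changes were not tested.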
